A study of Mus musculus with 7 samples.

Results

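The core glycolytic enzymes, from Gpi1 to Ldha, were examined in cells sorted from mouse lung. The members were chosen by name, as the rows of the deposited table whose gene name is Gpi1, Aldoa, Aldoc, Tpi1, Gapdh, Pgk1, Pgam1, Eno1, Pkm or Ldha. These 10 names matched 11 of the 35641 rows, because Aldoa has a second row, and 10 rows passed the filter of a mean of at least 10 normalized counts. The cells came from the lungs of female C57BL6 mice of 2 groups, HF (4 libraries) and LF (3 libraries). The labels neither spell these names out nor give an age, diet or treatment, while the study's title concerns oxidative stress in obesity. All groups were sorted by surface protein as CD45+, CD11b+, low in Ly6C and Ly6G+, and the labels call all of them neutrophils.

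Glycolysis turns glucose into pyruvate in the cytosol, and Ldha then reduces pyruvate to lactate, which regenerates the NAD+ that the Gapdh step consumes. Neutrophils hold few mitochondria and are known to draw most of their ATP from this pathway. Monocytes and macrophages can switch towards it when they are activated. Several of the genes are textbook targets of the hypoxia-inducible factor HIF-1, which binds a short motif with the core letters ACGTG, or GCGTG.

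The libraries had 13943173 to 18983351 reads assigned to genes. The sort genes went against the label in one group. Ly6g, which encodes the Ly6G protein, stood at 1301 to 4944 normalized counts in HF and at 0 to 8.22 in the libraries labelled LF, with 0 in LF7. Ly6c2, a gene of the Ly6C protein, averaged 4193 and 13682. The neutrophil list had 14 tested markers, of which 13 passed as higher in HF and 0 as lower, and its summed level was 426247 to 568417 in HF against 12064 to 13061 in the libraries labelled LF. The monocyte and interstitial macrophage list had 15, of which 0 passed as higher and 11 as lower, with sums of 30080 to 42936 against 169727 to 180751. Of all tested genes 26.2% passed as higher and 28.7% as lower. No marker of either list was at 0 in every library of a group. S100a8, a calprotectin subunit, averaged 41606 against 69.4, the receptor gene Csf3r 114715 against 5670, Csf1r 14073 against 33667, and Ccr2 909 against 21847. Ptprc, the gene of CD45, averaged 78839 against 39627, a direction that turned under quantile normalization, and Itgam, the gene of CD11b, 7506 against 3354. Every direction below is therefore a difference between HF and the libraries labelled LF. The part of cell type in these differences was not tested, and in sorted bulk RNA a change in the cells present and a change in RNA per cell cannot be told apart.

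Among the 10 enzymes, Gpi1, Aldoa, Gapdh, Pkm and Ldha were higher in HF, Tpi1 was lower, and Aldoc, Pgk1, Pgam1 and Eno1 did not pass the test. The test was limma on log2(normalized count + 1) across 14936 genes, with Benjamini-Hochberg adjustment over all of them and a threshold of 0.05. The 5 higher enzymes stand beside 26.2% of all tested genes that were higher, the 1 lower enzyme beside 28.7%, and the 6 called in all beside 55.0%. The total called was thus near the background and is no result about the enzymes. Their median log2 difference was 0.64, against -0.16 for all tested genes. It was 0.12 against -0.67 under equal library totals and 0.28 against -0.08 under quantile normalization.

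The authors' scaling matters for every fold change here. The sum of normalized counts was 17926505 to 19520195 in the HF libraries and 12742618 to 13085106 in those labelled LF. With all libraries set to equal totals the median of all tested genes moved by -0.51, and each enzyme's log2 difference fell by about as much. Under that scaling the same 5 enzymes passed as higher and Tpi1 as lower, beside 18.1% of all genes higher and 42.1% lower, or 60.2% in all. Under quantile normalization, which gives every library the same distribution of values, 4 enzymes were higher and 2 lower, beside 26.6% and 26.8% of all genes, or 53.4% in all.

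**Figure D1:**
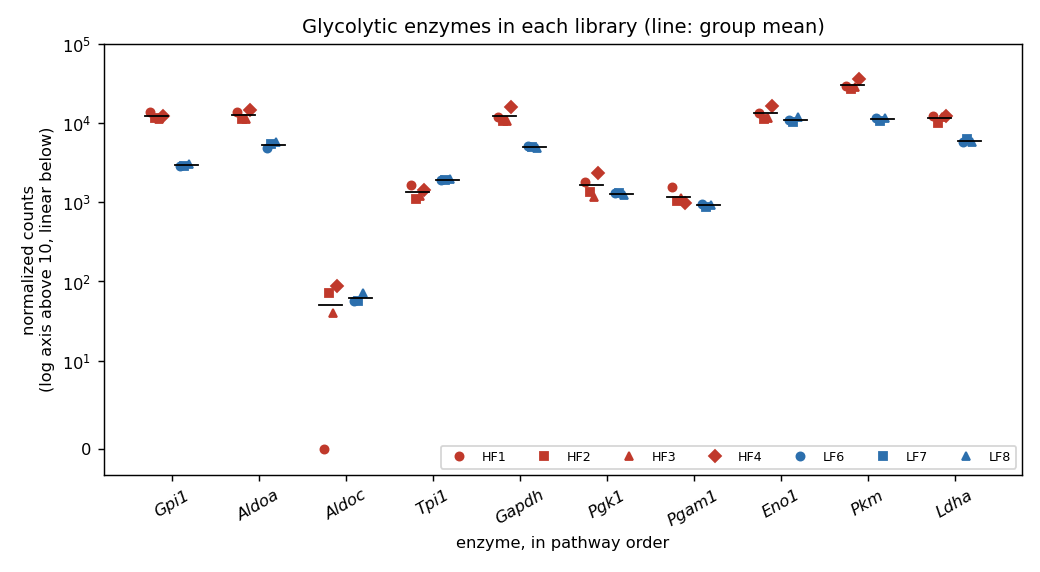
Normalized counts of the 10 enzymes in each library (vertical axis logarithmic above 10 and linear below), with HF in red, LF in blue and a black line at each group's mean. Gpi1, Aldoa, Gapdh, Pkm and Ldha were higher in every HF library, Tpi1 was lower in every HF library, and Aldoc was at 0 in HF1.

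Gpi1 encodes glucose-6-phosphate isomerase, which makes fructose-6-phosphate and so stands at the top of the chain. Gpi1 (ENSMUSG00000036427) stood at 13927, 11664, 11226 and 12388 normalized counts in HF1 to HF4 and at 2868, 2886 and 3058 in LF6 to LF8. All 4 HF libraries lay far above the 3 others, and the spread within each group was small, with a coefficient of variation of 9.63% in HF and 3.57% in LF. The ratio of the means was 4.19 and the log2 difference was 2.06 ± 0.08 (SE), the largest of the 10 enzymes (limma adjusted p = 5.5e-07). Under equal library totals it was 1.54, and under quantile normalization 1.43, and it remained past the threshold under every alternative tried.

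Aldolase splits fructose-1,6-bisphosphate into the triose phosphates, and Aldoa encodes the widely expressed form while Aldoc encodes the form known from brain. Aldoa (ENSMUSG00000030695) stood at 13889, 11250, 11224 and 14536 in HF1 to HF4 and at 4910, 5392 and 5781 in LF6 to LF8. The groups did not overlap, and the log2 difference was 1.24 ± 0.11 (SE; limma adjusted p = 4.8e-05), or 0.72 under equal library totals and 0.42 under quantile normalization. Aldoc (ENSMUSG00000017390) was a minor transcript, at 0, 70.7, 40.4 and 88.5 in HF1 to HF4 and at 56.9, 56.3 and 71.2 in LF6 to LF8. The groups overlapped, and HF1 alone had 0 reads, which allows up to 3.46 normalized counts there (3 reads, counting error only). Its log2 difference of -1.45 ± 1.47 (SE) did not pass (limma adjusted p = 0.43) and turned to 0.049 without HF1.

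Tpi1 encodes triosephosphate isomerase, which turns the second aldolase product into the substrate of Gapdh. Tpi1 (ENSMUSG00000023456) stood at 1665, 1101, 1212 and 1432 in HF1 to HF4 and at 1890, 1938 and 1960 in LF6 to LF8. Every HF library was below every library labelled LF, the reverse of Aldoa before it and Gapdh after it in the chain. The log2 difference was -0.53 ± 0.15 (SE; limma adjusted p = 0.016), and -1.05 under equal library totals. The call was lost without LF7 (limma adjusted p = 0.054) and without LF8 (0.056), with a range of 0.00038 to 0.056 over all alternatives, while the direction held in each.

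The next enzymes oxidize the triose phosphate and draw the first ATP. Gapdh (ENSMUSG00000057666), glyceraldehyde-3-phosphate dehydrogenase and a common reference gene in quantitative PCR, stood at 12006, 10764, 10713 and 16017 in HF1 to HF4. In LF6 to LF8 it stood at 5206, 4989 and 4809, so that every HF library was above every other. The log2 difference was 1.29 ± 0.14 (SE; limma adjusted p = 0.00012), or 0.77 under equal library totals and 0.46 under quantile normalization. Pgk1 (ENSMUSG00000062070), phosphoglycerate kinase, stood at 1801, 1365, 1166 and 2319 in HF1 to HF4 and at 1300, 1295 and 1228 in LF6 to LF8. HF3 was below all 3 libraries labelled LF and HF4 was the highest of all, so the groups overlapped. The log2 difference of 0.33 ± 0.22 (SE) did not pass (limma adjusted p = 0.23) and turned to -0.19 under equal library totals.

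Pgam1 and Eno1 rearrange and dehydrate phosphoglycerate. Pgam1 (ENSMUSG00000011752), phosphoglycerate mutase, stood at 1553, 1032, 1121 and 985 in HF1 to HF4 and at 951, 868 and 938 in LF6 to LF8. The groups did not overlap, but HF4 was close to LF6 and HF1 was well above the others, and the difference of 0.33 ± 0.17 (SE) did not pass (limma adjusted p = 0.13). Eno1 (ENSMUSG00000063524), enolase, stood at 13618, 11176, 11621 and 16634 in HF1 to HF4 and at 10993, 10372 and 11858 in LF6 to LF8. HF2 and HF3 lay within the range of the libraries labelled LF, and the difference of 0.24 ± 0.13 (SE) did not pass (limma adjusted p = 0.16). The directions of both turned under equal library totals, to -0.19 for Pgam1 and -0.28 for Eno1. Eno1 passed as lower under quantile normalization, at -0.65 (limma adjusted p = 0.0011, the lowest of a range that reached 0.35).

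Pkm and Ldha close the chain. Pkm (ENSMUSG00000032294) encodes the muscle-type pyruvate kinase, which makes pyruvate and ATP, and was the most abundant of the enzymes, at 29334, 27012, 28392 and 35933 in HF1 to HF4. In LF6 to LF8 it stood at 11634, 10638 and 11583, and the groups lay far apart. The log2 difference was 1.41 ± 0.10 (SE; limma adjusted p = 9.4e-06), or 0.89 under equal library totals and 0.41 under quantile normalization. The table counts reads per gene and so does not separate the M1 and M2 splice forms. Ldha (ENSMUSG00000063229), lactate dehydrogenase A, stood at 12182, 9924, 11855 and 12310 in HF1 to HF4 and at 5844, 6316 and 5770 in LF6 to LF8. Every HF library was above every library labelled LF, with a log2 difference of 0.95 ± 0.09 (SE; limma adjusted p = 5e-05). That difference was 0.43 under equal library totals, and 0.12 under quantile normalization, where it did not pass (limma adjusted p = 0.22).

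**Figure D2:**
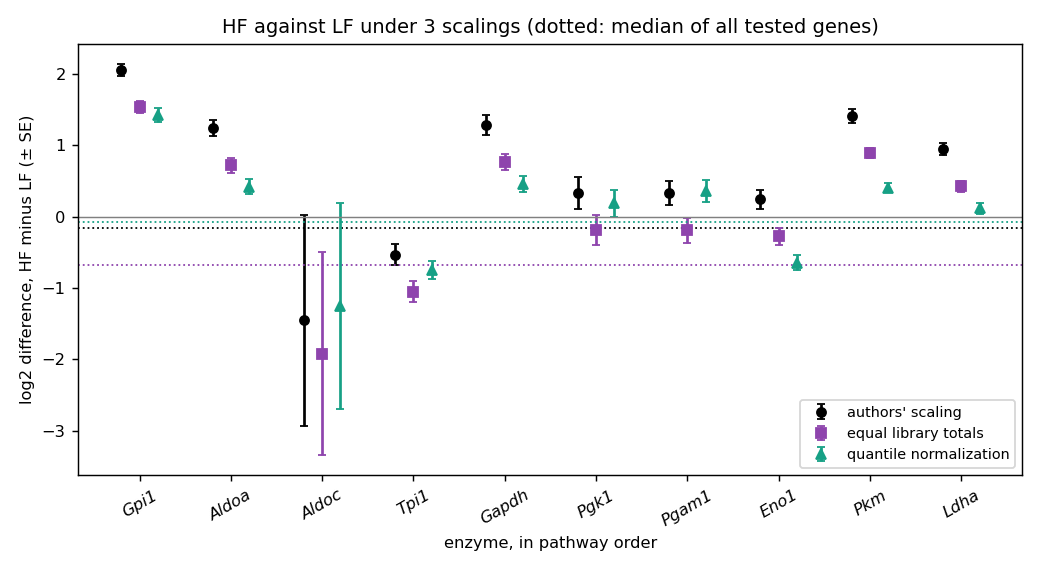
Log2 difference between HF and LF for each enzyme, with its standard error, under the authors' scaling (black), equal library totals (purple) and quantile normalization (green); dotted lines mark the median of all tested genes under each. Gpi1 lay highest under all 3 scalings (2.06, 1.54 and 1.43), Tpi1 lay below 0 under all 3, and Eno1 changed sign.

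By the authors' normalized counts 6 enzymes lay wholly above and 1 wholly below the libraries labelled LF. Beside these stand 28.4% and 33.7% of all tested genes with no overlap in the same direction, or 62.2% in either. The 6 include Pgam1, which did not pass the test. Its share of all normalized counts overlapped, at 0.00505% to 0.00852% in HF and 0.00681% to 0.00727% in LF. In the authors' deposited table the log2 fold change of Gpi1 was 2.07 with an error of 0.11, that of Tpi1 was -0.51 with an error of 0.17, and that of Aldoc was -0.30 with an error of 1.08. The authors' deposited table gave adjusted p-values of 0.194, 0.133 and 0.182 for Pgk1, Pgam1 and Eno1.

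Within HF the enzymes did not share 1 order of libraries. HF4 was the highest HF library for Aldoa, Aldoc, Gapdh, Pgk1, Eno1, Pkm and Ldha, while HF1 was the highest for Gpi1, Tpi1 and Pgam1. This order depends on the scaling. As shares of all normalized counts, HF1 was above HF4 for Aldoa (0.0762% against 0.0745%) and for Ldha (0.0669% against 0.0631%). The summed alveolar macrophage list was also highest in HF1, at 35107 normalized counts against 10855 to 12996 in the other HF libraries. In LF6 to LF8 the sum was 25222 to 27751. That list had 11 tested genes, 4 higher and 3 lower in HF, beside 26.2% and 28.7% of all tested genes. Among them, named after their values were seen, Siglecf averaged 1301 in HF and 52.0 in LF, and Ear2 994 and 4251. Marco, below the filter, was at 21.0 in LF6 and at 0 in every other library. Chil3 alone carried the excess in HF1, at 30151 against 6508 to 9035 in the other HF libraries. Without Chil3, left out after its values were seen, the sum was 4956 in HF1, 3961 to 5100 in the other HF libraries and 6180 to 7298 in LF6 to LF8, so HF1 was not the highest. Among neutrophil markers, Ltf, Ngp and Camp, named after their values were seen, were also highest in HF1, while S100a8 was highest in HF4. Ltf stood at 64164 in HF1 against 12474 to 20498 in the other HF libraries. The part of these markers in the enzyme values was not tested. Without HF1 both calls held, for Gpi1 with a limma adjusted p of 3.5e-06 and for Tpi1 with a log2 difference of -0.64 and a limma adjusted p of 0.0039. The coefficient of variation in HF ran from 9.61% for Ldha to 30.8% for Pgk1 among the enzymes other than Aldoc. Among the libraries labelled LF it ran from 1.85% for Tpi1 to 8.13% for Aldoa.

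Added together, the 10 enzymes took 0.549%, 0.476%, 0.476% and 0.577% of all normalized counts in HF1 to HF4 and 0.349%, 0.351% and 0.362% in LF6 to LF8. Every HF library gave them a larger share, and the ratio of the mean shares was 1.47. This share does not depend on the size factors. The difference of 0.165 percentage points had an exact two-sided permutation p of 0.057, the smallest that 4 libraries against 3 can give. Single shares went both ways. Gpi1 took 0.0663% ± 0.00703 of the counts in HF (SD, n = 4) and 0.0227% ± 0.000802 in LF (SD, n = 3). Tpi1 took 0.00728% ± 0.00133 (SD, n = 4) and 0.0149% ± 0.000406 (SD, n = 3), and Eno1 0.0712% ± 0.011 (SD, n = 4) and 0.0855% ± 0.00508 (SD, n = 3). The shares of Eno1 overlapped between groups, with HF4 at 0.0852% above LF6 at 0.0840% and LF7 at 0.0814%.

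The enzymes were therefore set against one another within each library, which removes the scaling. Each log2 value less the mean of the other 9 enzymes in its library gave Gpi1 a mean of 1.92 in HF and 0.28 in LF, and Tpi1 a mean of -1.63 and -0.39. Aldoc was then left out, an alternative chosen after its 0 in HF1 was seen. Values set against the other members must go both ways. Gpi1, Pkm, Gapdh and Aldoa stood higher against the rest in HF, by 1.40, 0.67, 0.53 and 0.48. Tpi1, Eno1, Pgam1 and Pgk1 stood lower, with differences of -1.51, -0.64, -0.55 and -0.54. Ldha overlapped, with a difference of 0.15. Of these values, only those of Tpi1 and Gpi1 exceeded 1 in size.

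**Figure D3:**
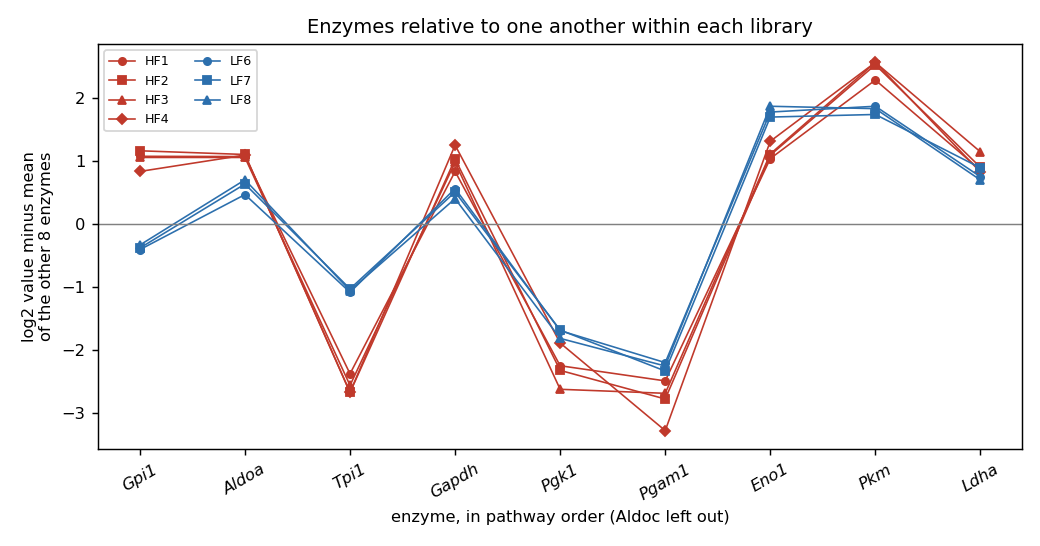
Each enzyme's log2 value minus the mean of the other 8 enzymes in the same library, in pathway order with Aldoc left out, 1 line per library (HF red, LF blue). The red and blue lines cross between Aldoa and Tpi1, with Gpi1 at 0.83 to 1.16 in HF and -0.41 to -0.34 in LF, and Tpi1 at -2.67 to -2.38 and -1.09 to -1.03.

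Ratios of enzyme pairs restate these values in plain numbers. These pairs were chosen after their values were seen and are compared between groups only, since gene length sets their absolute size. Gpi1 over Tpi1 was 8.37, 10.6, 9.26 and 8.65 in HF1 to HF4 and 1.52, 1.49 and 1.56 in LF6 to LF8. Pkm over Eno1 was 2.15, 2.42, 2.44 and 2.16 in HF and 1.06, 1.03 and 0.977 in LF. Gapdh over Tpi1, the enzymes of consecutive steps, was 7.21 to 11.2 in HF and 2.45 to 2.75 in LF. In all 3 ratios every HF library was above every library labelled LF. For the ratios over Tpi1 this follows from the single genes, since Gpi1 and Gapdh lay wholly above and Tpi1 wholly below. It is no further result.

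Levels of different enzymes were compared per kilobase, with lengths from GENCODE M21, whose gene IDs matched 99.9% of those in the table. Per kilobase of the transcript with the longest coding sequence, Pkm led in both groups, at 14781 ± 1940 normalized counts in HF (SD, n = 4) and 5529 ± 275 in LF (SD, n = 3). Eno1 came next in LF at 5463 per kilobase, a level that overlapped that of Pkm between libraries, while in HF it was the fourth at 6543. Gpi1 stood at 4265 per kilobase in HF and 1019 in LF. It was above Tpi1 in HF (841 per kilobase) and below it in LF (1201 per kilobase). Tpi1, Pgk1 and Pgam1 lay between 518 and 1201 per kilobase in both groups, and Aldoc was last at 29.4 and 36.2. With the length of all exons joined, Pkm stayed first and Aldoc last in both groups, and Gpi1 again lay above Tpi1 in HF and below it in LF.

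Other genes encode the same steps in other tissues. Of 12 such isoenzyme genes 11 were in the table, 6 were tested, 0 were higher and 2 were lower in HF, beside 26.2% and 28.7% of all tested genes, so the lower count was near the background. Ldhb, the heart-type lactate dehydrogenase, stood at 21.9, 42.4, 96.4 and 103 in HF1 to HF4 and at 587, 619 and 608 in LF6 to LF8. All HF libraries were far below, with a log2 difference of -3.43 ± 0.52 (SE; limma adjusted p = 0.00084). Eno3, the muscle-type enolase, averaged 375 ± 130 in HF (SD, n = 4) and 2122 ± 42.4 in LF (SD, n = 3), a log2 difference of -2.58 ± 0.29 (SE; limma adjusted p = 0.00016).

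The balance of isoenzymes within a step differed accordingly. Ldha over Ldhb was 556, 234, 123 and 120 in HF1 to HF4 and 9.95, 10.2 and 9.5 in LF6 to LF8. Eno1 over Eno3 was 68.7, 25.0, 32.3 and 33.7 in HF and 5.18, 4.79 and 5.7 in LF. Neither ratio overlapped between groups, and HF1 was the highest in both. For Ldha over Ldhb the lack of overlap follows from the single genes, since Ldha lay wholly above and Ldhb wholly below. The other tested isoenzymes did not pass. Pgam2 averaged 45.9 and 131 (limma adjusted p = 0.051; the alternatives gave 0.017 to 0.15), and Eno1b averaged 122 and 110. The testis forms were uneven. Pgk2 was at 93.9 in HF2 and at 0 in HF3 and HF4, Ldhc reached 32.3 in HF1 and was at 0 in HF3, and each had 1.5 in LF7 and 0 in LF6 and LF8. Gapdhs, Eno2, Eno4 and Pklr were below the filter.

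**Figure D4:**
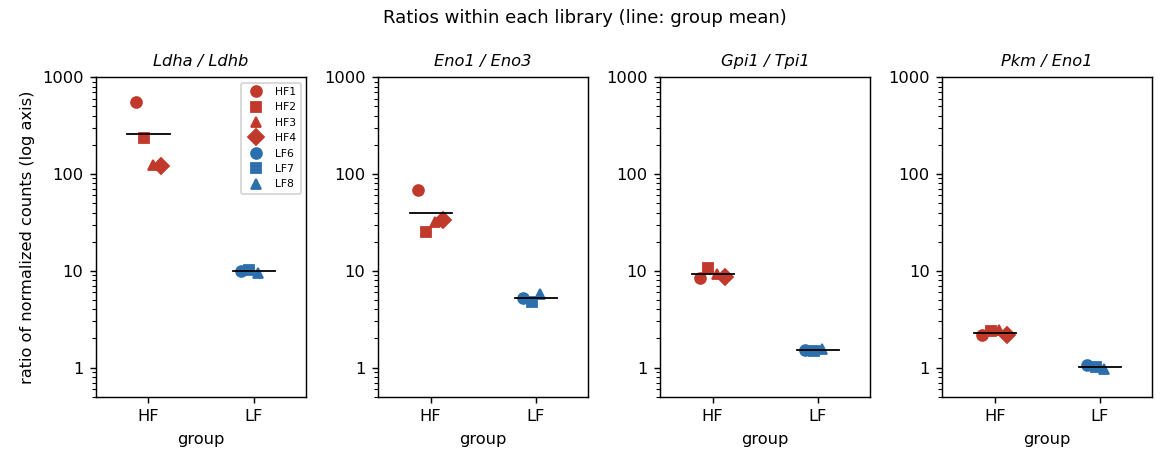
Ratios of normalized counts within each library for 4 gene pairs on a shared logarithmic axis, with HF in red, LF in blue and a line at the group mean. Ldha over Ldhb was 120 to 556 in HF and 9.5 to 10.2 in LF, and no pair overlapped between the groups. For Ldha over Ldhb and Gpi1 over Tpi1 this follows from the single genes, which differed in opposite directions without overlap.

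Genes around the chain were read from lists. Of 15 genes of glucose uptake and the entry steps, 12 were tested, 6 were higher and 1 was lower, beside 26.2% and 28.7% of all tested genes, with a median log2 difference of 0.67. Slc2a3, the glucose transporter GLUT3, averaged 22230 ± 3086 in HF (SD, n = 4) and 134 ± 35.4 in LF (SD, n = 3), a log2 difference of 7.39. Hk3, a hexokinase, differed by 2.86, and Pfkfb4, which sets the level of the phosphofructokinase activator fructose-2,6-bisphosphate, by 2.06 (all limma adjusted p at most 2.2e-07). Hk2, named after its values were seen, was the 1 lower gene, at 740 against 1063.

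Of 18 genes of pyruvate and lactate fate, 16 were tested, 2 were higher and 10 were lower, beside the same 26.2% and 28.7%, with a median of -0.88. These counts and shares are for the authors' scaling. The share of all genes that were lower was 42.1% under equal library totals, and the list's count under that scaling is not given here. The higher ones were Slc16a3, the lactate exporter MCT4, at 11512 ± 1787 in HF (SD, n = 4) and 2029 ± 130 in LF (SD, n = 3), and Mpc1, a subunit of the mitochondrial pyruvate carrier, at 2439 and 588. Pdhb, a subunit of pyruvate dehydrogenase, which feeds pyruvate to the mitochondrion, was lower with a log2 difference of -0.86 ± 0.15 (SE; limma adjusted p = 0.0016). The other subunit genes of that complex, Pdha1, Dlat, Dld and Pdhx, named after their values were seen, were lower too, with differences from -1.83 to -0.61. Its kinase genes Pdk1, Pdk2 and Pdk3, also named afterwards, were lower by the same test, with differences from -2.26 to -0.64, and each of these 3 calls was lost under at least 1 alternative (limma adjusted p up to 0.16, 0.12 and 0.051). The remaining lower genes, also named afterwards, were Slc16a7, of the same gene family as Slc16a3, at 190 and 838, and Pdp2 at 21.3 and 239. The call of Pdp2 was lost under at least 1 alternative (limma adjusted p up to 0.051).

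Of 12 genes of side branches, 10 were tested, 2 were higher and 3 were lower, with a median of -0.21. These counts were near the 26.2% and 28.7% of all tested genes. Minpp1, a phosphatase that removes phosphate from 2,3-bisphosphoglycerate, averaged 95.0 and 695. Gpd2, the mitochondrial glycerol-3-phosphate dehydrogenase, averaged 2858 and 986. Pck2, the mitochondrial enzyme that makes phosphoenolpyruvate, averaged 250 and 466 (limma adjusted p = 0.013), and its call was lost without LF6 or LF7 (0.052 in each) and with quantile normalization (0.102), the highest of a range from 0.00092.

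**Figure D5:**
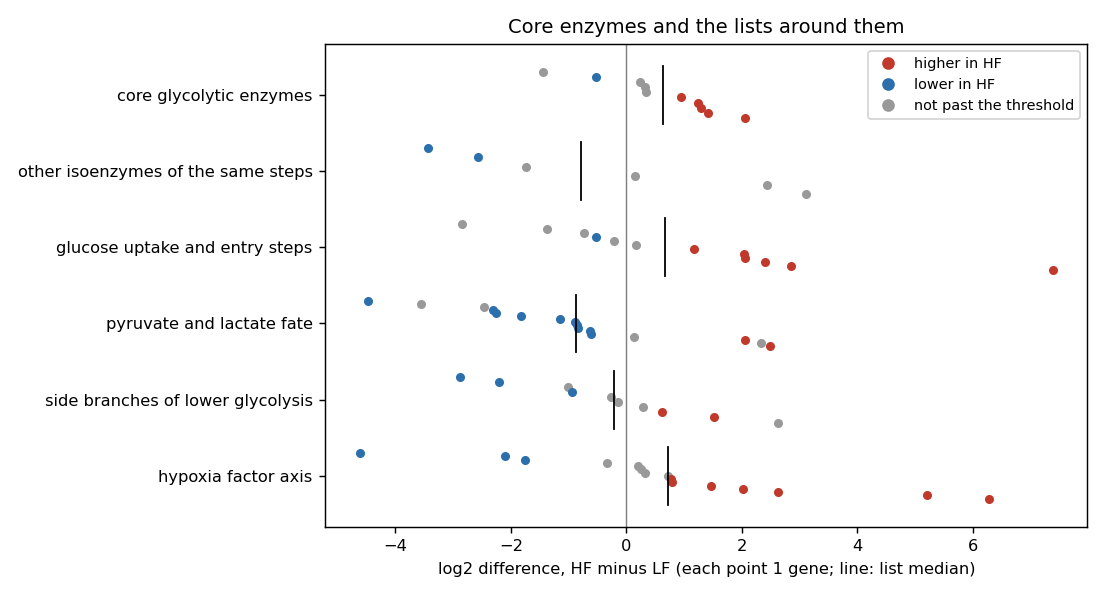
Log2 difference between HF and LF for every tested gene of the core enzymes and the 5 lists around them, each point 1 gene, coloured by whether it passed as higher (red), as lower (blue) or not (grey), with a line at each list's median. Core enzymes and entry steps had medians of 0.64 and 0.67, and the pyruvate and lactate list one of -0.88.

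The hypoxia factor axis was read because HIF-1 is a known regulator of these enzymes. Of 17 genes 15 were tested, 7 were higher and 3 were lower, beside 26.2% and 28.7% of all tested genes and 55.0% called in all, with a median of 0.72. Hif1a, its oxygen-regulated subunit, averaged 4785 ± 1778 in HF (SD, n = 4) and 2637 ± 271 in LF (SD, n = 3). Its log2 difference of 0.80 ± 0.25 (SE; limma adjusted p = 0.026) was 0.28 and did not pass under equal library totals (0.31, the highest of a range from 0.0018). It also did not pass without LF6, LF7, LF8 or HF3 (0.051, 0.088, 0.063 and 0.052). Egln3, a prolyl hydroxylase that marks HIF for decay, averaged 507 and 13.8, the mitophagy receptor gene Bnip3 1798 and 287, and Ndrg1 3144 and 1140. The other higher genes, also named afterwards, were Vegfa at 817 and 13.3, Ankrd37 at 270 and 66.6, and Arnt at 2023 and 1176. The 3 lower genes, named after their values were seen, were P4ha1, a collagen prolyl hydroxylase subunit, at 360 and 1486, Car9, a carbonic anhydrase, at 5.83 and 74.4, and Egln1, another prolyl hydroxylase of HIF, at 32.7 and 104. The calls of Arnt, Car9 and Egln1 were lost under at least 1 alternative (limma adjusted p up to 0.11, 0.056 and 0.051). The neutrophil and monocyte marker sums given above differed between the same libraries as each of these lists.

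Promoter letters were examined for the core ACGTG on both strands, in the 250 bases before each start in the RefSeq table (GRCm38.p6), where all 10 enzymes had an entry. A window with ACGTG was found for 5 of the 10 enzymes (Aldoa, Pgk1, Pgam1, Pkm and Ldha), against 18.5% of 27025 genes. The enzymes had 17 windows, more per gene than the table as a whole, and 35.3% of these held it, against 16.6% of all 32851 windows. Overlapping windows of Aldoa held the same site, which is thus counted more than once in that share. Of the most upstream windows, the kind shown here, 3 of 10 held it. The form GCGTG was not searched, and CACGTG, which holds the core on both strands, counts as 1 stretch. Shown are the most upstream windows of Ldha, which had 3 stretches and was higher in HF, of Pgk1, which had 2 and did not pass, and of Gpi1 and Tpi1, which had none and passed in opposite directions. Capitals mark ACGTG or its reverse complement, and each runs 5′ to 3′ on the gene's strand.
Ldha, chr7:46845554-46845803, plus strand: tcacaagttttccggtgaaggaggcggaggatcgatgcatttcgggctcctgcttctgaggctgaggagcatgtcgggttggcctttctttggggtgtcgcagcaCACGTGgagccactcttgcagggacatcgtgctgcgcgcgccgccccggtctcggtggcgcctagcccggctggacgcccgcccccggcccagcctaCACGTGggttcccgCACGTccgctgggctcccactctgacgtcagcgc
Pgk1, chrX:106186850-106187099, plus strand: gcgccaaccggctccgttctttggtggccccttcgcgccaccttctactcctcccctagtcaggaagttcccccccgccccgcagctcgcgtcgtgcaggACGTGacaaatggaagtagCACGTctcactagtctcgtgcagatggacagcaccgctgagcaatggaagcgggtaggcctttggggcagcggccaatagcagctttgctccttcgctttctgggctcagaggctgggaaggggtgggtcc
Gpi1, chr7:34230337-34230586, minus strand: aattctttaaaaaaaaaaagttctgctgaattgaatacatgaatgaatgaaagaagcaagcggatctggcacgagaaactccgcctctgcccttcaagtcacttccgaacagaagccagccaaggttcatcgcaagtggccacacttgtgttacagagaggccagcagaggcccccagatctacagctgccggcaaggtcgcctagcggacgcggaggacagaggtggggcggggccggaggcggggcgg
Tpi1, chr6:124814159-124814408, minus strand: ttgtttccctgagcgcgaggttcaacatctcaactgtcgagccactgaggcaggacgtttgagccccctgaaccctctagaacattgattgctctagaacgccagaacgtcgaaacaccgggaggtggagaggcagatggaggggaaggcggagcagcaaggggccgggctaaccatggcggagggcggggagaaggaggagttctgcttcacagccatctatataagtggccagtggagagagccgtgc

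In these 4 windows, letters were present in 1 called and 1 uncalled gene and absent in 2 called genes, and a match is a description of letters only.

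Several of these genes share exact stretches of sequence with other annotated genes, which can take or lose reads. Of all windows of 50 bases in the transcript used for length, 90.4% of those of Gapdh also occurred exactly in another GENCODE gene, as did 72.2% for Eno1, 68.0% for Pgk1, 41.5% for Pgam1 and 39.3% for Pkm. The shares were 25.3% for Gpi1, 16.6% for Ldha, 13.5% for Aldoa, 7.51% for Tpi1 and 0 for Aldoc. The search took both strands and did not leave out genes that overlap at the same place, such as those named below. The windows of Gpi1 were spread over 122 other genes. These shares are therefore not those of gene copies alone. The sources used here do not give how reads with several matches were counted, and levels of Gapdh, Eno1 and Pgk1 are the least certain. Exons of Gpi1, Aldoa, Tpi1 and Gapdh overlapped those of another gene on the opposite strand by 255, 25, 34 and 68 bases at most, and whether strand was used is not given. The same-strand annotation Gm49759 overlaps Pkm by up to 454 bases and stood at 1285 to 1904 in HF and 401 to 439 in LF.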

How the data were processed

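RNA of sorted mouse lung cells was sequenced from 4 HF and 3 LF libraries, made with a SMART-Seq kit per the labels' protocols. DESeq2 1.20.0, featureCounts 1.6.3 and STAR 2.6.1b are listed, with no roles, in the submitters' processing notes, and the genome build is not given in the sources used here. The authors deposited a signal of normalized counts per gene and library. In every library 100% of them were whole multiples of 1 read (within 0.01), from which reads were recovered. The deposited log2 fold changes, test statistics (a score) and p-values were used only where the authors' table is named. The LF columns are numbered 6, 7 and 8, the labels 1 to 3, so they carry no replicate number, and 0 columns were left unmapped. Nothing says more of separate mice than the design text's count per group, and p-values measure the spread between libraries.

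Genes with a mean of at least 10 were tested with limma 3.58.1 (R 4.3.3, trend) on log2(normalized count + 1). On this scale changes of low genes are compressed by the pseudocount, while a single 0 can enlarge them, as for Aldoc (-1.45, against -0.30 in edgeR with the authors' size factors). Each library was left out in turn. Other alternatives were array weights, limma without its trend or with a robust prior, a minimum mean of 50 or none, pseudocounts of 0.5 and 5, quantile normalization, equal totals, and the recovered reads in DESeq2 1.42.0 and in edgeR 4.0.16. With the authors' size factors edgeR called 7624 genes. The tests were also run on simulated data in which few genes changed, as many up as down. That run does not bear on the scaling of these data, in which 55.0% of tested genes were called. Members and lists were chosen with earlier results of these data known. Named are the 10 enzymes, their isoenzymes, the 3 genes of smallest limma p and the 1 of largest mean in each other list, and 8 sort and lineage genes. Marker lists not described in the text had these counts higher and lower of those tested: T and NK cells 0 and 0 of 13, B cells 1 and 0 of 7, erythroid cells and platelets 8 and 0 of 11, eosinophils, basophils and mast cells 3 and 0 of 8, epithelial, endothelial and fibroblast cells 3 and 2 of 11, mitochondrially encoded proteins 0 and 7 of 12. Beside these counts, 26.2% of all tested genes were higher and 28.7% lower. Figures were drawn with matplotlib 3.10.9.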

Additional observations from a re-analysis of the deposited data

Results flagged for a closer look

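The spread of the 4 HF libraries was examined for 51 named values, of which 5 had 1 library standing apart by Dixon's criterion (the gap to the nearest library over the group's range). Chance gives about 1 in 20. HF1 stood apart in the log2 ratio of Aldoa to Aldoc (0.878), in Aldoc relative to the other enzymes (0.872) and in Aldoa relative to the other enzymes (0.93), and all 3 rest on the 0 reads of Aldoc in HF1. HF4 was the highest HF library in Hk3, at 11613 against 10196 to 10421 in the others (0.841). HF4 was also the highest in Minpp1, at 130 against 79.7 to 86.5 (0.865).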

How the results depend on the processing

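The 5 higher enzymes passed under every alternative except quantile normalization, which ended the call of Ldha. Leaving out each library gave 5 higher enzymes in each case, 0 to 1 lower enzymes (0 without LF7 or LF8, 1 with all libraries), and a median of 0.60 to 0.72. Quantile normalization gave 2 lower enzymes. The median of the enzymes was 0.12 with equal library totals and 0.28 with quantile normalization. Directions turned under equal library totals for Pgk1 (-0.19), Pgam1 (-0.19), Eno1 (-0.28) and Eno1b (-0.37), under quantile normalization for Eno1 (-0.65) and Ptprc (-0.13), and without HF1 for Aldoc, whose values with a library left out ran from -2.11 to 0.049. None of these had passed with all libraries and the authors' scaling except Ptprc. Among other isoenzymes 1 was higher with quantile normalization, array weights and edgeR with the authors' size factors, and 2 with DESeq2. Leaving out single libraries gave 0 to 1 (1 without HF3). Entry steps had 2 lower with a mean of at least 50 and quantile normalization, 3 with equal totals and array weights, and 1 to 2 with a library left out (2 without HF1, HF2 or HF4). Side branches had 1 higher with equal totals, and with a library left out 1 to 2 higher (1 without LF8) and 1 to 3 lower (1 without LF6 or LF7). Pyruvate and lactate genes had 7 to 11 lower with a library left out. The cause was not tested. All genes called numbered 6450 to 8464 with a library left out, against 8211. No paired analysis was possible because the LF columns carry none of the replicate numbers in the labels. Aldoc, Pgk2 and Ldhc rest on few reads per library. HF1, with 0 reads of Aldoc, had 15805742 reads assigned to genes, more than HF2, with 13943173 and 55 of Aldoc.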

Other observations

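The second row named Aldoa (ENSMUSG00000114515), which GENCODE M21 places as a separate gene, had 3 reads in LF8 and 0 in the other 6 libraries. Rows named as copies of the enzymes were low beside them. Eno1b, a retrotransposed enolase copy, was the highest, at 105 to 145 normalized counts in HF and 100 to 124 in LF. Ldha-ps2 stood at 26.5 to 28.2 in HF and 4.5 to 15.8 in LF, and Pgam1-ps2 at 16.7 to 43.7 and 18.8 to 27.7. Counts of Ldha-ps2 were higher in every HF library than in every library labelled LF, as were those of Ldha, while the other named copies of Ldha, Gapdh and Pgk1 had 2 to 28 reads over all libraries.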
